A study of Danio rerio with 40 samples.

Results

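The crystallin genes of the lens were followed by class in whole zebrafish larvae labelled as knockouts of smad3a, smad3b, smad6a and smad6b. Members were the entries of the count table whose name began with cryaa or cryab (alpha), cryba or crybb (beta), or crygm, crygn or crygs (gamma), and cryptochromes were not included. The rule gave 57 of 32520 entries, of which 3 were alpha, 13 beta and 41 gamma. They carried 56 distinct names, because crygm2d17 named 2 entries, ENSDARG00000069817 and ENSDARG00000109861. A reference name table called the latter crygm2d19, and both are given here with their identifier. The quadruple knockout (qKO) carried smad3a-/-, smad3b-/-, smad6a-/- and smad6b-/-, and the controls were wild-type cousins. Each genotype had 5 pools of 5 whole embryos taken at 5 days post fertilization (dpf). The other 30 of the 40 samples of the series were not analysed here. Whether the pools came from separate clutches is not given in the sources used here, so the p-values measure the spread between these pools.

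Crystallins are the soluble proteins that fill the fibre cells of the lens and give it its refractive power. Alpha crystallins belong to the small heat shock proteins and act as chaperones that keep other lens proteins in solution. Beta and gamma crystallins share a related fold and serve mainly as structural proteins. In fish most gamma crystallins are of the methionine-rich gamma-M kind, encoded by many tandem copies, while gamma-N crystallins stand between the beta and gamma families and gamma-S crystallins are known from the adult lens of mammals. A whole larva holds very few lens cells, so these transcripts were read against the RNA of the rest of the body.

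Total counts per pool ranged from 16062147 to 191289475, and crystallins took between 1.13% and 1.81% of the counts of a pool. At these depths 3 counts stood for 0.0157 to 0.187 CPM, the unit of read counts normalised to library size. Levels are CPM with TMM scaling (a trimmed mean over genes), and they were not compared between genes because gene lengths were not used. The targeted genes gave a check of the labels. For smad3a the qKO pools had 8.81 to 12.8 CPM and the controls 37.1 to 46.1, and for smad3b they had 5.98 to 6.99 and 13.3 to 14.5 CPM. For smad6a the qKO pools had 35.9 to 42.6 CPM and the controls 27.6 to 34.0, and for smad6b they had 36.0 to 42.2 and 24.1 to 27.4 CPM. Both smad6 transcripts were thus present in the qKO at levels above the controls, and for these genes the genotype is taken from the labels.

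Pools 1 and 2 of a genotype stood apart from its pools 3 to 5, a division into 2 sets that no label describes. The clock gene nr1d1 had 8.94 and 8.45 CPM in the first set of controls and 42.1, 48.0 and 45.9 CPM in the second. In the qKO it had 334 and 352 CPM in the first set and 1.80, 1.59 and 2.62 CPM in the second. Control and qKO values of nr1d1 differed in opposite directions in the 2 sets. Class totals, class shares and the calls of members are therefore also given by pool set, and the part of the sets in them was not tested further. The p-values of the comparison over all pools treat the 5 pools of a genotype as independent, which these sets go against.

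Alpha and beta crystallins were mostly lower in the qKO, and gamma crystallins were mixed. Of the 48 members that passed the filter on low counts (2 alpha, 13 beta and 33 gamma), 24 changed past an adjusted p of 0.05 (edgeR's quasi-likelihood test, Benjamini-Hochberg over 22894 genes), against 25.8% of all genes tested. Of these, 20 were lower and 4 higher, where 12.5% of all genes were lower and 13.4% higher. The share of called genes that were higher among all genes depended on the scaling, at 51.7% with TMM and 67% with library totals alone, whereas library totals called 18 members lower and 6 higher. The median log2 fold change was -0.35 over the 48 members, and 0.03 over all genes. Both tested alpha members fell, 9 of 13 beta members fell, and 9 of 33 gamma members fell while 4 rose, a share of higher members close to that of all genes. All 9 of those beta members were called lower in pools 3 to 5 alone, where 21.3% of all genes were. That fit shares its pools with the full comparison. With the replicate number as a block, 2 of 13 beta members were called. Of the 22894 genes, 4543 were called with the block and 5910 without it. No beta member passed in pools 1 and 2 alone or with each pool set summed to 1 sample, in edgeR or DESeq2. In edgeR 21.4% and 2.85% of all genes were called in these 2 fits. In either fit 2 beta members had an unadjusted p under 0.05 in edgeR. The ratio of the beta totals in pools 1 and 2 was 0.927. With 1 pool left out, 4 or 5 beta members were called without control pool 3, 4 or 5 or qKO pool 2, 3 or 4, and 8 to 10 without one of the other pools. In such whole-body pools fewer lens cells and less RNA per lens cell cannot be told apart. The 9 members that did not pass the filter were cryaba, crygm1, crygm2a, crygm4, crygm6, crygs1, crygs2, crygs3 and crygs4, with between 0 and 89 counts over all 10 pools. For crygm6 no pool had a count, which allows a level of up to 0.0157 to 0.187 CPM depending on the pool.

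**Figure D1:**
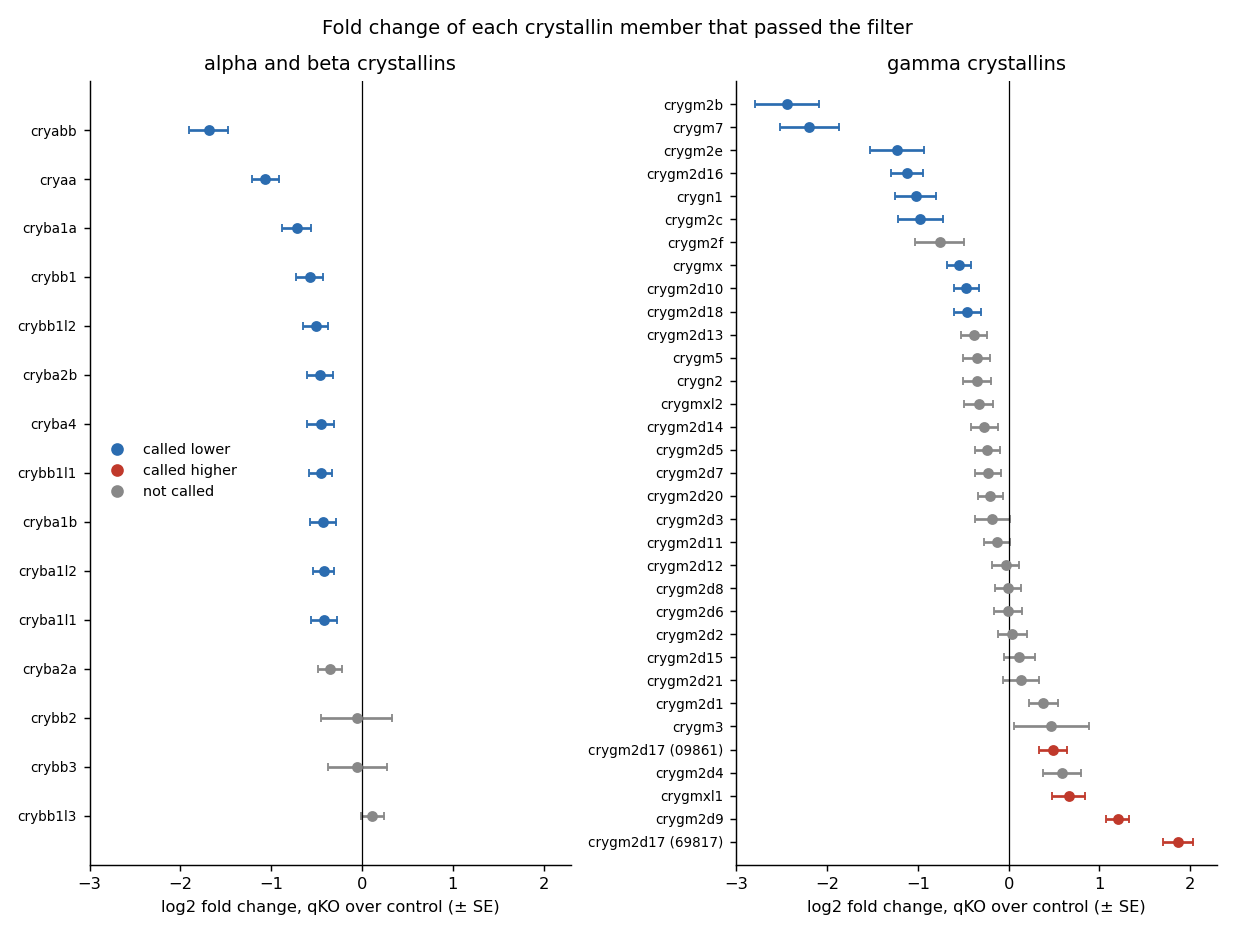
Log2 fold change (qKO over control, ± SE, horizontal axis) of each of the 48 crystallin members that passed the filter, alpha and beta on the left and gamma on the right, coloured by call at an adjusted p under 0.05. The 2 alpha members and all called beta members lie left of 0, while gamma members run from -2.44 for crygm2b to 1.86 for crygm2d17, and the digits in brackets are the last 5 of the 2 identifiers that share that name.

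The summed level of each class was then read per pool. The alpha total was 45.0, 55.4, 63.8, 70.1 and 60.1 CPM in controls 1 to 5, against 37.5, 26.6, 25.2, 21.9 and 28.1 CPM in qKO pools 1 to 5. Every qKO pool lay below every control. The mean was 58.9 ± 9.43 CPM in controls and 27.9 ± 5.86 CPM in the qKO (SD, n = 5 each), a ratio of 0.474. The beta total was 7145, 7321, 11160.0, 9468 and 8570 CPM in the controls and 7552, 5865, 5285, 5766 and 7049 CPM in the qKO. Of the qKO pools, 4 lay below every control and pool 1 lay within the control range. The beta means were 8733 ± 1656 and 6303 ± 953 CPM (SD, n = 5 each), a ratio of 0.722. The gamma total was 5899, 5668, 8813, 7595 and 7002 CPM in the controls and 8325, 5869, 5405, 5998 and 6755 CPM in the qKO. The gamma values of the genotypes overlapped, with means of 6995 ± 1287 and 6470.4 ± 1145 CPM (SD, n = 5 each) and a ratio of 0.925. These totals are sums over chosen members and were given no test.

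**Figure D2:**
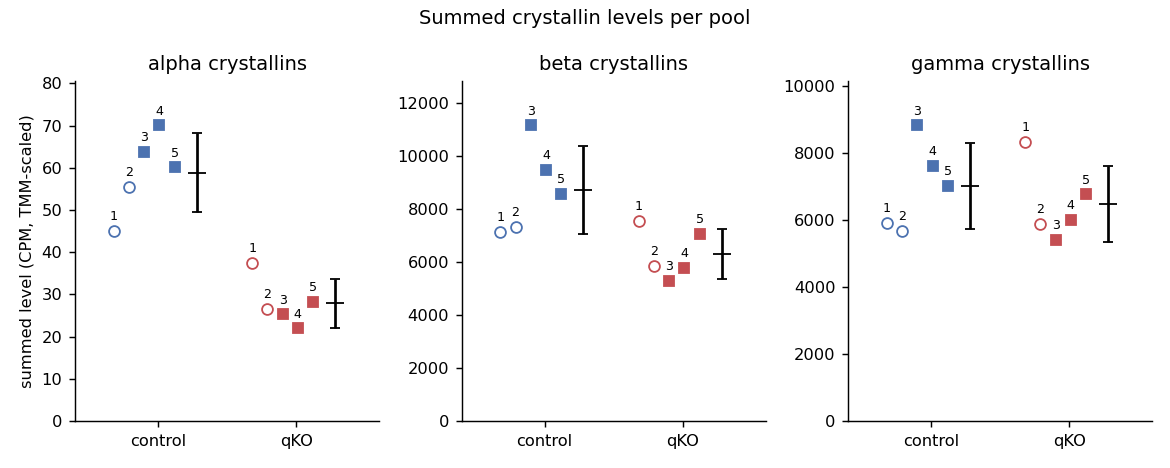
Summed crystallin level per pool (TMM-scaled CPM, vertical axis) for the alpha, beta and gamma classes in control and qKO larvae. Open circles are pools 1 and 2, filled squares pools 3 to 5, digits are pool numbers and the black bar is the mean ± SD of 5 pools; the genotypes do not overlap for alpha and overlap for beta and gamma.

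Both alpha members that could be tested fell in the qKO. The level of cryaa, the alpha-A chaperone of the lens, was 42.6, 53.7, 61.9, 68.3 and 58.5 CPM in controls 1 to 5, against 36.8, 25.9, 24.8, 21.3 and 27.6 CPM in the qKO. No qKO pool reached the lowest control, as was also so for 8.75% of all genes. The mean fell from 57.0 ± 9.63 to 27.3 ± 5.79 CPM (SD, n = 5 each), giving -1.07 on the log2 scale (SE 0.15, edgeR adjusted p = 0.000368). The level of cryabb, 1 of the 2 zebrafish alpha-B copies and one described in zebrafish also outside the lens, was 2.34, 1.66, 1.74, 1.79 and 1.57 CPM in the controls and 0.757, 0.647, 0.380, 0.620 and 0.479 CPM in the qKO. Its groups did not overlap either, and the mean fell from 1.82 ± 0.303 to 0.576 ± 0.148 CPM (SD of 5 pools each; log2 fold change -1.69, SE 0.21, edgeR adjusted p = 0.000185). The other alpha-B copy, cryaba, had 30 counts in all 10 pools and was not tested. In pools 1 and 2 alone the log2 fold change of cryaa was -0.64 and missed the threshold (edgeR adjusted p = 0.0581), while that of cryabb was -1.50 (edgeR adjusted p = 0.00820). In pools 3 to 5 they were -1.38 and -1.88 (adjusted p = 5.11e-06 and 0.000182, edgeR).

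In the beta class 12 of the 13 members had a negative log2 fold change, with a median of -0.43 and a range from -0.72 to 0.11. All of these values were nearer 0 than those of both alpha members. The largest was that of cryba1a, a beta-A1 gene, with 5.49, 3.46, 5.76, 4.49 and 4.71 CPM in the controls and 3.63, 2.85, 2.34, 2.52 and 3.16 CPM in the qKO. The groups overlapped only in that the lowest control, pool 2, lay under qKO pool 1, and the mean fell from 4.78 ± 0.908 to 2.90 ± 0.513 CPM (SD of 5 pools each; log2 fold change -0.72, SE 0.16, edgeR adjusted p = 0.00677).

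The 3 beta members with the highest mean CPM, which is not per length, were crybb1l1, crybb1 and crybb1l2, all beta-B1 genes, which encode basic beta subunits, and all 3 fell. The level of crybb1 was 1333, 1354, 2151, 1702 and 1484 CPM in the controls and 1303, 1089, 858, 932 and 1194 CPM in the qKO. The groups did not overlap, with control pools 1 and 2 close above qKO pool 1. The mean fell from 1605 ± 339 to 1075 ± 183 CPM (SD of 5 pools each; log2 fold change -0.58, SE 0.15, edgeR adjusted p = 0.0140). For crybb1l2 the values were 1025, 1011, 1514, 1326 and 1208 CPM in the controls and 999, 773, 707, 792 and 1004 CPM in the qKO. These did not overlap (log2 fold change -0.51, SE 0.14, edgeR adjusted p = 0.0163). For crybb1l1 they were 1424, 1472, 2145, 1848 and 1619.8 CPM in the controls and 1449, 1145, 1096, 1165 and 1356 CPM in the qKO, where pool 1 lay above the lowest control (log2 fold change -0.45, SE 0.13, edgeR adjusted p = 0.0196). Besides crybb1 and crybb1l2, the groups did not overlap for cryba1l2, which fell from 21.4 ± 2.34 to 16.1 ± 2.45 CPM (SD of 5 pools each; log2 fold change -0.42, SE 0.11, edgeR adjusted p = 0.0163).

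The other called beta members were cryba2b, cryba4, cryba1b and cryba1l1, with log2 fold changes from -0.47 to -0.42 and adjusted p-values from 0.0294 to 0.0482 (edgeR). Their qKO pools 1 and 5 lay within the control range. These 4 calls lay near the threshold and were lost when any 1 of several pools was left out. Each of the 4 was lost without control pool 3, 4 or 5 and without qKO pool 2, 3 or 4, and cryba1l1 also without qKO pool 5. The call of crybb1l1 was lost without control pool 4 and without qKO pool 3. The number of beta calls was 9 with all pools, 4 without control pool 4 and 4 without qKO pool 3, and 5 without control pool 3, without control pool 5, without qKO pool 2 or without qKO pool 4. Over all genes 5910 were called with all pools, 4309 without control pool 4 and at most 6363 with 1 pool left out. The calls of cryba1a, crybb1, crybb1l2 and cryba1l2 held with each pool left out in turn. The members that did not pass were cryba2a (-0.35, SE 0.14, edgeR adjusted p = 0.0718), crybb1l3 (0.11, SE 0.13, edgeR adjusted p = 0.553), crybb3 (-0.05, SE 0.32, edgeR adjusted p = 0.923) and crybb2 (-0.06, SE 0.39, edgeR adjusted p = 0.929). The sign of crybb2, which had 319 counts in all 10 pools, was positive with library totals alone.

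The names of all 57 entries were found in the RefSeq table (assembly GRCz12tu, whereas the submitters' processing notes name GRCz11). In its gene order 8 beta members formed 4 neighbouring pairs of 1 acidic and 1 basic subunit. Both partners fell in 3 pairs, cryba1l2 and crybb1l2 (-0.42 and -0.51), cryba4 and crybb1 (-0.46 and -0.58), and cryba1l1 and crybb1l1 (-0.42 and -0.45). In the remaining pair cryba1a fell by 0.72 on the log2 scale and crybb1l3 had a log2 fold change of 0.11. Differences between partners were not tested.

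Among the 20 gamma entries other than crygm2d, 12 were tested, 6 fell and 1 rose, which is 58.3% called against 25.8% of all genes, with a median log2 fold change of -0.65. The 2 gamma-N genes were crygn1, which fell, and crygn2, which did not pass. The level of crygn1 was 7.15, 7.43, 9.95, 10.0 and 11.6 CPM in the controls and 6.85, 4.00, 3.10, 3.10 and 5.85 CPM in the qKO. All qKO pools lay below all controls, with pool 1 close to them, and the mean fell from 9.22 ± 1.88 to 4.58 ± 1.70 CPM (SD of 5 pools each; log2 fold change -1.02, SE 0.23, edgeR adjusted p = 0.00646). The level of crygn2 was 635, 629.6, 1045, 827 and 839 CPM in the controls and 758, 563, 525, 570.0 and 706 CPM in the qKO, with overlap (log2 fold change -0.35, SE 0.15, edgeR adjusted p = 0.104).

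The log2 fold changes furthest below 0 in the gamma class were those of gamma-M genes with few counts. For crygm2b the controls had 0.801, 0.678, 1.66, 1.92 and 1.06 CPM and the qKO 0.359, 0.297, 0.206, 0.0885 and 0.202 CPM, which did not overlap. It fell by 2.44 on the log2 scale (SE 0.35, edgeR adjusted p = 0.000436), on 397 counts in all 10 pools. For crygm7 the controls had 0.370, 0.950, 0.940, 1.02 and 0.853 CPM and the qKO 0.239, 0.175, 0.111, 0.0885 and 0.252 CPM. The groups did not overlap although control pool 1 was far under the other controls, and the log2 fold change was -2.19 (SE 0.32, edgeR adjusted p = 0.000485) on 293 counts. Of the other gamma-M genes outside crygm2d, crygm2e fell by 1.23 on the log2 scale (edgeR adjusted p = 0.00943). The gene crygm2c fell by 0.97 (edgeR adjusted p = 0.0130) without overlap, on 380 counts in all 10 pools.

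Of the 3 genes named crygmx or crygmxl, all gamma-M-like, 1 fell, 1 rose and 1 did not pass. The level of crygmx fell from 285 ± 53.0 to 195 ± 25.1 CPM (SD of 5 pools each; log2 fold change -0.54, SE 0.13, edgeR adjusted p = 0.00863), with 226 CPM in qKO pool 1 just above the lowest control at 225 CPM. Its RefSeq neighbour crygmxl2 had 428 ± 93.6 and 341 ± 63.4 CPM (SD of 5 pools each; log2 fold change -0.33, SE 0.16, edgeR adjusted p = 0.139). The gene crygmxl1 was the only called riser outside crygm2d, with 1.23, 1.32, 1.901, 1.36 and 1.80 CPM in the controls and 1.87, 2.18, 3.15, 2.57 and 2.48 CPM in the qKO. Only qKO pool 1 lay within the controls. The mean rose from 1.52 ± 0.304 to 2.45 ± 0.476 CPM (SD of 5 pools each; log2 fold change 0.66, SE 0.18, edgeR adjusted p = 0.0173), and the call was lost without qKO pool 3. The untested crygs4, a gamma-S gene named after its values were seen, had 34 counts in all 10 pools. Its level was 0.0851 to 0.123 CPM in the controls and 0 to 0.0398 CPM in the qKO. The 0 was that of qKO pool 4, where 3 counts stood for 0.145 CPM, above every control value. The untested crygm4, with 89 counts, went the other way with overlap, at means of 0.0626 CPM in controls and 0.147 CPM in the qKO.

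The 21 crygm2d entries, all tested, made up most of the gamma counts. Of these 3 rose and 3 fell, which is 28.6% called and close to the 25.8% of all genes, and the median log2 fold change was -0.03. Single copies moved in both directions. For crygm2d17 (ENSDARG00000069817) the controls had 68.2, 50.2, 58.3, 91.6 and 70.6 CPM and the qKO 314, 241, 194, 220.3 and 265 CPM. Every qKO pool lay far above the highest control, where 9.2% of all genes had all qKO pools above all controls. The mean rose from 67.8 ± 15.6 to 247 ± 45.8 CPM (SD of 5 pools each; log2 fold change 1.86, SE 0.16, edgeR adjusted p = 1.9e-05). For crygm2d9 the controls had 56.3, 48.3, 68.2, 64.1 and 61.3 CPM and the qKO 175, 119.7, 124, 152 and 117 CPM. The groups were again apart, and the mean rose from 59.6 ± 7.68 to 138 ± 25.3 CPM (SD of 5 pools each; log2 fold change 1.20, SE 0.13, edgeR adjusted p = 5.42e-05).

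For the second crygm2d17 (ENSDARG00000109861) the controls had 243, 176, 296, 315 and 294 CPM and the qKO 471, 332, 324, 338 and 398 CPM. All qKO pools lay above all controls, by as little as 324 against 315 CPM, and the log2 fold change was 0.49 (SE 0.15, edgeR adjusted p = 0.0325). That call was lost without control pool 1 and without qKO pool 1, 4 or 5. Its log2 fold change was 0.94 in pools 1 and 2 (edgeR adjusted p = 0.0634), 0.19 in pools 3 to 5 (edgeR adjusted p = 0.113) and 0.57 with the sets summed (edgeR adjusted p = 0.237), so that none of these fits called it. For crygm2d16 the controls had 223, 255, 426, 329 and 285 CPM and the qKO 175, 128, 110.2, 129.5 and 158 CPM. The groups did not overlap, and the mean fell from 304 ± 78.7 to 140.0 ± 25.8 CPM (SD of 5 pools each; log2 fold change -1.12, SE 0.17, edgeR adjusted p = 0.000856). The 2 other called copies were lower. They were crygm2d10 (-0.47, edgeR adjusted p = 0.0225), lost without control pool 4 or qKO pool 3, and crygm2d18 (-0.45, edgeR adjusted p = 0.0404), lost without control pool 2, 3 or 4 or qKO pool 2, 3 or 4. The crygm2d copy with the highest mean CPM, crygm2d13, had 660.4 ± 133 and 509 ± 75.7 CPM (SD of 5 pools each; log2 fold change -0.38, SE 0.14, edgeR adjusted p = 0.0662) and was not called. The 15 copies that were not called had log2 fold changes from -0.38 for crygm2d13 to 0.59 for crygm2d4, the latter at an adjusted p of 0.0526 (edgeR).

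Within the counts of the 21 crygm2d entries, the proportions of the copies shifted. The share of crygm2d17 (ENSDARG00000069817) was 1.26% ± 0.274 in controls and 4.68% ± 0.273 in the qKO, and that of crygm2d9 was 1.10% ± 0.0754 and 2.62% ± 0.352 (SD, n = 5 each). The share of crygm2d16 was 5.53% ± 0.546 in controls and 2.65% ± 0.161 in the qKO (SD, n = 5 each). The copies are closely related, and how reads matching several copies were counted is not given in the sources used here, so counts may have been divided between them and each copy's value is uncertain.

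In the RefSeq gene order 34 gamma entries formed 1 run, with 29 tested, of which 4 rose, 7 fell and 18 were not called. Over all genes tested 13.4% rose and 12.5% fell. Successive entries of the run were at most 2 positions apart. Both crygm2d17 entries were matched by name and so took the same position. The neighbours given below are those of the deposited table. Entries that rose stood next to entries that fell or were not called, and differences between neighbours were not tested. The entry crygm2d17 (ENSDARG00000069817), at 1.86, stood between crygm2d18 at -0.45 and crygm2d8 at -0.01 in the deposited table. The crygmxl1 entry, at 0.66, stood between crygm2c at -0.97 and crygm2b at -2.44. The second crygm2d17 entry, at 0.49, stood between crygm2d6 at -0.00 and crygm2d12 at -0.03. The crygm2d9 entry, at 1.20, stood between crygm2d5 at -0.23 and crygm2d4 at 0.59. That of crygm2d4 was also positive and lay just short of a call (edgeR adjusted p = 0.0526).

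**Figure D3:**
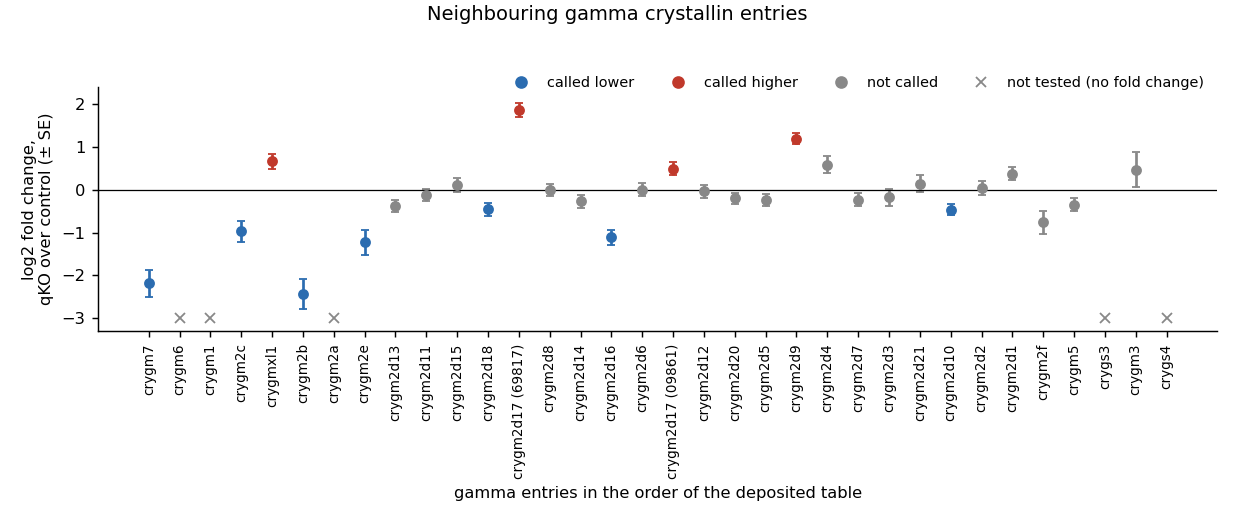
Log2 fold change (qKO over control, ± SE, vertical axis) of the 34 neighbouring gamma entries in the order of the deposited table (horizontal axis), with crosses at the lower edge for the 5 entries that were not tested and have no fold change. The 4 entries called higher and the 7 called lower lie among 18 that were not called, where 13.4% of all genes were higher and 12.5% lower. The digits in brackets are the last 5 of the identifiers of the 2 crygm2d17 entries.

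Each class was also taken as a share of all crystallin counts in its pool, which does not depend on the scaling between libraries. The gamma share was 45.1%, 43.5%, 44.0%, 44.3% and 44.8% in controls 1 to 5, against 52.3%, 49.9%, 50.4%, 50.9% and 48.8% in the qKO. The beta share was 54.6%, 56.1%, 55.7%, 55.3% and 54.8% in the controls and 47.5%, 49.9%, 49.3%, 48.9% and 51.0% in the qKO. The alpha share was 0.344%, 0.425%, 0.318%, 0.409% and 0.384% in the controls and 0.236%, 0.227%, 0.235%, 0.186% and 0.203% in the qKO. In none of the 3 classes did the genotypes overlap. The mean shares were 44.3% ± 0.643 and 50.5% ± 1.28 for gamma, 55.3% ± 0.628 and 49.3% ± 1.29 for beta, and 0.376% ± 0.0444 and 0.217% ± 0.0220 for alpha (control and qKO, SD, n = 5 each). The shares sum to 100 in a pool, so they do not vary independently, and they are shares of counts rather than of molecules.

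The higher gamma share was that of crygm2d. Its 21 entries took 34.5% ± 0.713 of the crystallin counts in controls and 41.2% ± 1.50 in the qKO, and the other gamma entries 9.79% ± 0.420 and 9.30% ± 0.256 (SD, n = 5 each). The summed crygm2d level itself was 5445 ± 969 CPM in controls and 5280 ± 962 CPM in the qKO (SD, n = 5 each), a ratio of 0.970. That ratio was 1.28 in pools 1 and 2 and 0.813 in pools 3 to 5. Over all pools the ratio was 0.722 for beta and 0.768 for the other gamma entries. In pools 1 and 2 these ratios were 0.927 and 1.02, and in pools 3 to 5 they were 0.620 and 0.648. The difference of the gamma share was 6.15 percentage points and that of beta -5.99. With crygm2d left out they were 0.854 and -0.650 points. These are shares of the remaining crystallin counts, a smaller base, so points on the 2 bases are not directly comparable. With the 4 called higher gamma members left out, the gamma and beta differences were 4.46 and -4.30 points. These 4 were picked by their calls in the same pools, so smaller differences follow from the choice. Within the pool sets the difference was 6.85 points for gamma and -6.69 for beta in pools 1 and 2 and 5.69 and -5.53 in pools 3 to 5. The alpha difference was -0.153 points in pools 1 and 2 and -0.162 in pools 3 to 5. These shares were given no test.

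**Figure D4:**
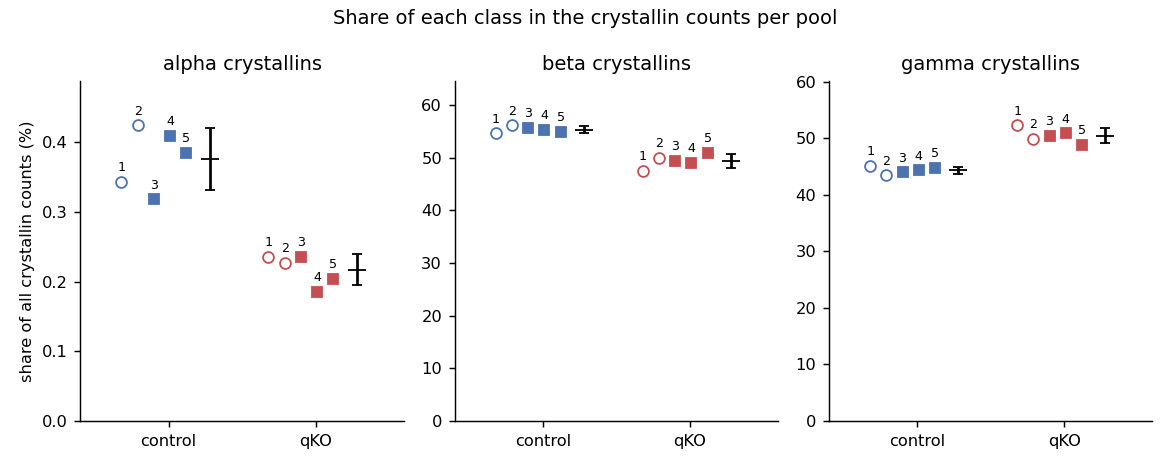
Share of each class in all crystallin counts of a pool (percent, vertical axis) in control and qKO larvae, with the same symbols for pools and the mean ± SD of 5 pools. In the alpha and beta panels all qKO pools lie below all controls, and in the gamma panel, where they reach from 48.8% to 52.3%, they lie above the controls at 43.5% to 45.1%.

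Single members were also scaled to 10000 crystallin counts. In CPM the groups did not overlap for 18% of all genes, and 2 alpha, 3 beta and 5 gamma members lay below all controls and 3 gamma members above. Per 10000 crystallin counts, 2 alpha, 8 beta and 6 gamma members lay below, and 1 beta and 9 gamma members lay above, 8 of these 9 being crygm2d entries. On that scale 2.04% of all genes tested lay below and 8.68% above. The crystallin total had a qKO over control ratio of 0.811 in CPM, which on average moves genes upward on this scale. That ratio was 1.06 in pools 1 and 2 and 0.688 in pools 3 to 5, so the shift differed between the pool sets. Members are also part of that total, so their values do not vary independently. Of the crygm2d entries above, crygm2d6, crygm2d8 and crygm2d12 had log2 fold changes of -0.002, -0.01 and -0.03 in the full comparison, and the others had positive ones. The count of cryaa was 36.4 ± 4.47 per 10000 in controls and 21.3 ± 2.21 in the qKO, and that of crybb1 was 1015 ± 46.9 and 839.7 ± 55.4 (SD, n = 5 each). The count of crygm2d17 (ENSDARG00000069817) was 43.7 ± 10.1 and 192 ± 9.20, that of crygm2d9 was 38.1 ± 3.28 and 108 ± 16.6, and that of crygm2d16 was 191 ± 15.7 and 109 ± 4.01 (SD, n = 5 each). The controls of crybb1, with an SD of 339 on a mean of 1605 in CPM, had an SD of 46.9 on a mean of 1015 on this scale. The beta member that lay above was crybb1l3.

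Some pools were the highest or lowest of their genotype for many beta and gamma members. Of the 2 alpha members, control pool 1 was the highest control for 1 and the lowest for the other, while qKO pool 1 was the highest qKO pool for both. Control pool 3 was the highest control for 11 of 13 beta and 23 of 33 gamma members. Control pool 1 was the lowest for 8 beta and 14 gamma members, and control pool 2 for 3 beta and 16 gamma members. In the qKO, pool 1 was the highest for 8 beta and 29 gamma members, and pool 3 the lowest for 9 beta and 21 gamma members. The ratio of the class totals differed between the pool sets. In pools 1 and 2 it was 0.639 for alpha, 0.927 for beta and 1.23 for gamma, and in pools 3 to 5 it was 0.388, 0.620 and 0.776. In each class the totals of control pools 1 and 2 lay below those of control pools 3 to 5. Among the qKO totals, pool 1 lay above pools 3 to 5 in each class, while pool 2 lay within their range. The ratio of mean CPM was lower in pools 3 to 5 than in pools 1 and 2 for both alpha members, 12 of 13 beta and 32 of 33 gamma members.

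Fits within the sets called different numbers of members. In pools 1 and 2, where 21.4% of all genes were called, 10.3% lower and 11.2% higher, 8 members were called. These were cryabb, crygm7 and crygm2d16, which fell, and crygm2d9, crygm2d17 (ENSDARG00000069817), crygm2d1, crygm2d12 and crygm2d6, which rose. In pools 3 to 5, where 41.3% of all genes were called, 21.3% lower and 20.1% higher, 36 members were called, 33 lower and 3 higher. All 20 members that fell in the full comparison were called lower in pools 3 to 5, and 3 of them were also called lower in pools 1 and 2. These fits share their pools with the full comparison and are no separate evidence.

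The copy crygm2d12 was called in both sets with opposite signs, 0.46 in pools 1 and 2 (edgeR adjusted p = 0.0166) and -0.39 in pools 3 to 5 (edgeR adjusted p = 0.0158). That copy was named after its values were seen. Both crygm2d9, at 1.49 and 0.98, and crygm2d17 (ENSDARG00000069817), at 2.23 and 1.59, were called higher in both sets, with adjusted p-values from 4.36e-05 to 0.00562 (edgeR). The copy crygm2d16 was called lower in both, at -0.66 and -1.42 (adjusted p = 0.00994 and 0.000491, edgeR). With each pool set summed to 1 sample, 2 against 2, 7 members were called, where 2.85% of all genes were, 1.94% lower and 0.903% higher. These were cryaa, cryabb, crygm7, crygm2b and crygm2d16, which fell, and crygm2d17 (ENSDARG00000069817) and crygm2d9, which rose.

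**Figure D5:**
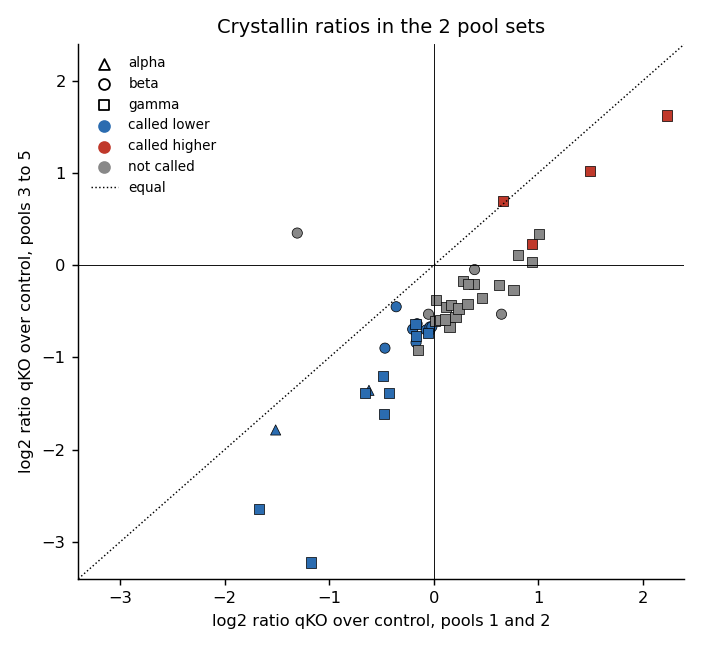
Log2 ratio of mean CPM (qKO over control) of the 48 tested crystallin members in pools 1 and 2 (horizontal axis) and in pools 3 to 5 (vertical axis), with shapes for the classes, colours for the call over all pools and a dotted line where both ratios are equal. Most points lie below the dotted line, 12 of 13 beta and 32 of 33 gamma members among them, and the beta members have a median of -0.07 on the horizontal axis and -0.67 on the vertical one.

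Other genes of the lens were read beside the crystallins. A list of lens structure genes held fibre cell membrane, junction and filament genes and others such as grifin and caprin2. Of its 19 tested genes 3 fell and 1 rose, which is 21.1% called against 25.8% of all genes. The median log2 fold change was -0.17, with 16 of 19 negative. Their summed level was 737 to 1054 CPM in controls and 644 to 885 CPM in the qKO, and none was at 0 in all pools. In pools 1 and 2 the sum was 737 to 763 CPM in controls and 644 to 818 CPM in the qKO. In pools 3 to 5 it was 931 to 1054 and 696 to 885 CPM. The gene grifin, which encodes a galectin-related protein of lens fibre cells, had 12.0, 15.2, 21.7, 18.9 and 17.5 CPM in the controls and 7.69, 5.84, 5.40, 3.98 and 5.44 CPM in the qKO. The groups did not overlap, and the mean fell from 17.1 ± 3.72 to 5.67 ± 1.33 CPM (SD of 5 pools each; log2 fold change -1.60, SE 0.18, edgeR adjusted p = 7.91e-05). The beaded filament gene bfsp2 fell by 0.47 on the log2 scale (edgeR adjusted p = 0.0206), caprin2 fell by 0.56 (edgeR adjusted p = 0.0319), and epha2a, an ephrin receptor gene, rose by 0.28 (edgeR adjusted p = 0.0463). Among the genes that did not pass were the lens water channel genes mipa (-0.28, SE 0.10, edgeR adjusted p = 0.0611) and mipb (-0.12, SE 0.11, edgeR adjusted p = 0.444) and the lens connexin gene gja8a (-0.01, SE 0.14, edgeR adjusted p = 0.968). Without control pool 4 only grifin stayed called, and with any 1 pool left out 1 to 5 genes of the list were called. The call of caprin2 was also lost without control pool 5 or qKO pool 3, 4 or 5, and that of epha2a without control pool 1, 2 or 5 or qKO pool 3, 4 or 5.

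None of the 15 tested lens transcription factor genes, among them foxe3, pitx3, hsf4 and pax6a, passed the threshold in edgeR or DESeq2. In edgeR 4 had an unadjusted p under 0.05, as had 38.8% of all genes, 2 passed with library totals alone, both higher, and 3 passed without qKO pool 2, all higher. Their median log2 fold change was 0.10, with a range from -0.17 to 0.37. These factors are also made outside the lens.

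Genes of other tissues were read in the same way. Of 25 photoreceptor genes 14 fell, where 12.5% of all genes did, with a median log2 fold change of -0.60, and 11 had all qKO pools below all controls, as had 8.75% of all genes. The 4 with the lowest p-values were the rod phosphodiesterase gene pde6a (-1.16, edgeR adjusted p = 0.000124), the red cone opsin gene opn1lw1 (-1.71, edgeR adjusted p = 0.000168), the arrestin gene sagb (-1.34, edgeR adjusted p = 0.000700) and the blue cone opsin gene opn1sw2 (-0.64, edgeR adjusted p = 0.00114). In pools 1 and 2 alone 10 of the 25 fell and 5 rose, against 10.3% and 11.2% of all genes, and in pools 3 to 5 alone 19 of the 25 fell, against 21.3%. With the sets summed 4 fell, against 1.94%. The summed level of the list was 9723 to 14167 CPM in controls and 5889 to 9718 CPM in the qKO, and no gene of the list was at 0 in all pools. In pools 1 and 2 it was 9723 to 10620.2 CPM in controls and 8683 to 9718 CPM in the qKO, and in pools 3 to 5 it was 12769 to 14167 and 5889 to 7056 CPM. The part of the eye as a whole in the crystallin results was not tested.

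Of 9 tested small heat shock genes outside the crystallins, the family of the alpha class, hspb11 fell by 0.65 (edgeR adjusted p = 0.00198), hspb2 fell by 0.56 (edgeR adjusted p = 0.0221) and hspb9 rose by 0.87 (edgeR adjusted p = 0.0357). With a median log2 fold change of 0.16 over the list, these 3 calls are 33.3% of it, against 25.8% of all genes. That of hspb2 was lost without control pool 3 or 5 or qKO pool 3 or 5, and that of hspb9 without control pool 1, 3, 4 or 5 or qKO pool 3 or 4, with 1 to 5 genes called when 1 pool was left out. With library totals alone, 2 of them fell and 4 rose. Of 10 skeletal muscle genes, actn3b fell by 0.35 (edgeR adjusted p = 0.0321), tnnt3b fell by 0.32 (edgeR adjusted p = 0.0375) and acta1b, a skeletal actin gene, rose by 0.58 (edgeR adjusted p = 0.00102). These 3 calls are 30% of the list, against 25.8% of all genes. The call of actn3b was lost without control pool 5 or qKO pool 3, 4 or 5, and that of tnnt3b without control pool 3, 4 or 5 or qKO pool 3, 4 or 5. The median log2 fold change of the muscle list was -0.21, with 9 of 10 negative. Its summed level in pools 1 and 2 was 28520 to 30015 CPM in controls and 29491 to 30869 CPM in the qKO. In pools 3 to 5 it was 30846 to 33998 and 25194 to 27186 CPM.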

How the data were processed

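Libraries were made with the TruSeq Stranded Total RNA kit from 200 ng of RNA of each of 10 pools of 5 larvae, per the labels' protocols. The authors deposited 1 table of raw read counts per Ensembl gene, whole numbers with 1 column per library and no column of other samples. The submitters' processing notes name GRCz11, FastQC 0.11.9, Trim Galore 0.6.6, featureCounts, Subread 2.0.0 and MultiQC 1.9, without roles. The strand setting, the annotation release and the treatment of reads matching several genes are not given in the sources used here, so overlapping, antisense and near-identical genes are uncertain. The other 30 samples were not analysed here.

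Counts were compared in R 4.3.3 with edgeR 4.0.16 (filterByExpr, TMM, robust quasi-likelihood test, no covariate, Benjamini-Hochberg over all genes tested), with calls made at an adjusted p below 0.05. Standard errors came from the log2 fold change and the test statistic. Means ± SD cover 5 pools, and the limit for 0 counts (3 counts) covers counting error only. Biological variation between pools was 16.8%. Counts of any 2 of the 10 pools differed beyond sampling noise (chi-square of 5.52 to 322 per degree of freedom). On simulated counts of 22688 genes with the real means and depths, the test recovered 79.6% of 98 genes changed by 1 on the log2 scale and 23.2% of 99 changed by 0.5, with 7 false calls among 22491 unchanged genes. Far fewer genes were changed there than the 25.8% called in the data, and the simulated pools were drawn independently, without pool sets. The rates of recovery and of false calls therefore do not carry over to the real comparison.

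The members and the lists of other genes were chosen with earlier results of these data known, so no test over a list was made. Named by rule were every alpha member; in the beta and gamma classes the 3 members with the highest mean CPM, up to 8 lower and 5 higher members with the lowest p, and the 3 highest that were not called; up to 4 called genes per list; and nr1d1 and the 4 targeted genes. Other genes named with values were chosen after their values were seen. Alternatives were DESeq2 1.42.0 (size factors, Wald test), library totals, TMM without the crystallins, other filters, the replicate number as a block, the pool set as a covariate, each pool set alone or summed, an adjusted p under 0.01 and each pool left out in turn. Leaving crygm2d or the 4 higher gamma members out of the shares was added after the data were seen.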

Additional observations from a re-analysis of the deposited data

Results flagged for a closer look

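Pools that stood apart within their genotype were looked for in 104 groups of 5 pools with Dixon's gap test, and 4 were found, where chance gives about 1 in 20. For cryabb, control pool 1 had 2.34 CPM and the other controls 1.57 to 1.79 CPM. For crygm7, control pool 1 had 0.370 CPM and the other controls 0.853 to 1.02 CPM. For opn1lw1, qKO pool 5 had 4.03 CPM and the other qKO pools 1.95 to 2.47 CPM. For hspb11, qKO pool 5 had 10.4 CPM and the other qKO pools 14.3 to 15.5 CPM. The calls of cryabb and crygm7 held without control pool 1.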

How the results depend on the processing

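The count of called crystallin members was 24. It was 15 with the replicate block, 8 in pools 1 and 2, 7 with the pool sets summed, 11 at an adjusted p under 0.01, and 16 to 28 with 1 pool left out. Alpha calls were 2, and 1 in pools 1 and 2. Beta calls were 9, with 2 under the block, 0 in pools 1 and 2, 0 with the sets summed, 1 at the stricter threshold, and 4 to 10 with 1 pool left out. Gamma calls were 13, with 7 in pools 1 and 2, 24 in pools 3 to 5, 5 with the sets summed, 8 at the stricter threshold, and 10 to 16 with 1 pool left out. Calls over all genes were 5910, with 9551 in pools 3 to 5, 700 summed, 2797 at the stricter threshold, and 4309 to 6363 with 1 pool left out. Under the other scalings, filters, the DESeq2 Wald test and the pool set covariate these counts stayed within 1.5 times. Same-numbered pools did not deviate together (correlations from -0.15 to -0.00017), and no control matched its own number best. Each control best matched a qKO pool of the other pool set. Differences between the sets that run in opposite directions in the 2 genotypes, as for nr1d1, lower such correlations. The correlations therefore cannot show whether the numbers pair the pools.

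In pools 1 and 2 the class ratios were 0.639 for alpha, 0.927 for beta and 1.23 for gamma. With the 4 higher gamma members left out the share differences were -4.30 points for beta and 4.46 for gamma, and without crygm2d they were -0.650 and 0.854. The 4 were picked by their calls in these pools, and leaving out crygm2d changes the base of the shares, so neither step is a test. The sign turned in pools 1 and 2 for 14 of 47 members and in pools 3 to 5 for 5 of 48, none called over all pools. Among the genes named by rule these were crybb1l3 (-0.060 in pools 3 to 5), crybb2 (0.032 with library totals, 0.33 in pools 3 to 5, -0.48 to 0.10 with 1 pool left out), and in pools 1 and 2 crygn2 (0.061), crygm2d13 (0.012) and crygmxl2 (0.11). The causes were not tested. Depth limits crygm2b, crygm2c and crygm7, which rest on 397, 380 and 293 counts over all 10 pools.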
